A study of Homo sapiens with 6 samples.

Results

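The regulators NFE2L2 (which encodes the transcription factor NRF2), KEAP1 and BACH1 and the antioxidant genes NQO1, TXNRD1, SRXN1, GCLC, GCLM and PRDX1 were followed in AsPC-1 cells after knockdown of HMOX1. These 9 genes were chosen by name, not by a threshold on their values, and were found among the 20263 genes of the count table by matching Ensembl identifiers to symbols. All 9 passed the filter on low counts, as did 13769 genes in all. AsPC-1 is a human pancreatic adenocarcinoma cell line. The cells were transfected with a negative control siRNA (siControl) or with 1 of 2 siRNAs against HMOX1 (HMOX1si1 and HMOX1si2), and messenger RNA was sequenced in 2 libraries per group. All 6 libraries are of the same line and all went through transfection, so no untransfected cells are compared. The labels give no time after transfection. They do not say that replicates came from separate cultures, and the spread behind the p-values may therefore be technical.

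NRF2 switches on genes with an antioxidant response element, a short DNA motif that it binds together with a small MAF protein. KEAP1 holds NRF2 in the cytoplasm and hands it to a ubiquitin ligase, until oxidants or electrophiles modify KEAP1 and NRF2 escapes. BACH1 is a heme-binding repressor that occupies the same kind of element, and heme releases it from DNA and marks it for degradation. HMOX1, which encodes the heme-degrading enzyme heme oxygenase-1, is itself a classical target of both factors, so its knockdown touches an enzyme that removes the ligand of BACH1.

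The 6 libraries held between 36.1 and 45.1 M counts. HMOX1 was counted 328 and 378 times in the siControl libraries, 102 and 112 times with HMOX1si1, and 55 and 53 times with HMOX1si2, so each knockdown library matched its label. All 9 listed epithelial markers of the line were detected, while of 6 acinar and endocrine markers CPA1, AMY2A and INS were at 0 in all libraries and the 6 together summed to at most 0.383 CPM (counts per sequencing depth, with the library sizes corrected by TMM). The fibroblast markers summed to between 79.0 and 125 CPM, of which LUM gave nearly all. The epithelial sums were 13989.5 and 15821 CPM in siControl and between 10401 and 10507 with HMOX1si1. With HMOX1si2 they lay between 14173 and 14278, inside the control range. The fibroblast sums were 119 and 125 in siControl, between 91.2 and 95.4 with HMOX1si1, and between 79.0 and 87.0 CPM with HMOX1si2. Unlike LUM, COL1A1 had a higher mean with HMOX1si2 (4.29 CPM) than in siControl (2.71), and the rest of that list reached at most 0.775 CPM. The blood markers, mostly CD14, summed to 10.2 and 10.5 CPM in siControl, between 6.53 and 7.25 with HMOX1si1, and between 10.0 and 10.9 with HMOX1si2. The endothelial markers summed to at most 1.71 CPM. Most of the epithelial sum came from KRT8, KRT18 and KRT19. Their group means were 6202, 2934 and 3515 CPM in siControl and 3877, 2119 and 2116 CPM with HMOX1si1. CDH1, CEACAM5 and CEACAM6 had higher means with HMOX1si1 than in siControl, and the other listed epithelial markers had lower ones. All libraries are labelled as the same cell line, so a list named after another cell type does not show that such cells were present. The part of these sums in the results was not tested. In bulk RNA, fewer cells of the line with a transcript and less of it per cell cannot be told apart.

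TXNRD1, the cytosolic thioredoxin reductase, was the only member that passed the test: its transcript fell with HMOX1si2 and on average over both siRNAs. NQO1 was lower in all 4 knockdown libraries without passing. KEAP1, BACH1, SRXN1 and GCLC had values near control on average. A fall as large as that of NQO1 with the same siRNA lay within the intervals of KEAP1 for each siRNA. With HMOX1si2 it also lay within those of BACH1 and GCLC. GCLM was nominally higher, and NFE2L2 and PRDX1 varied so much between replicates that sizeable changes could not be seen. By edgeR's quasi-likelihood test with a Benjamini-Hochberg adjusted p under 0.05, 0 of 9 members were called with HMOX1si1, against 10.0% of all genes tested. NQO1 had an unadjusted p under 0.05 there, as did 30.8% of all genes, and DESeq2 called it, along with 19.2% of all genes. With HMOX1si2 1 of 9 was called against 5.73%, and on average 1 of 9 against 10.1%. The share of members called was thus near that of all genes. Both HMOX1si1 libraries lay below both controls for 5 members (NQO1, SRXN1, TXNRD1, KEAP1 and GCLC), as for 31.9% of all genes, and above them for GCLM, as for 31.9%. Both HMOX1si2 libraries lay below both controls for 4 members (NQO1, TXNRD1, NFE2L2 and GCLC), as for 28.1% of all genes. The median log2 fold change of the 9 genes was −0.05 with HMOX1si1, −0.12 with HMOX1si2 and −0.08 on average, against −0.0013, 0.0024 and −0.0045 over all genes. Both siRNAs are compared with the same 2 control libraries.

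**Figure D1:**
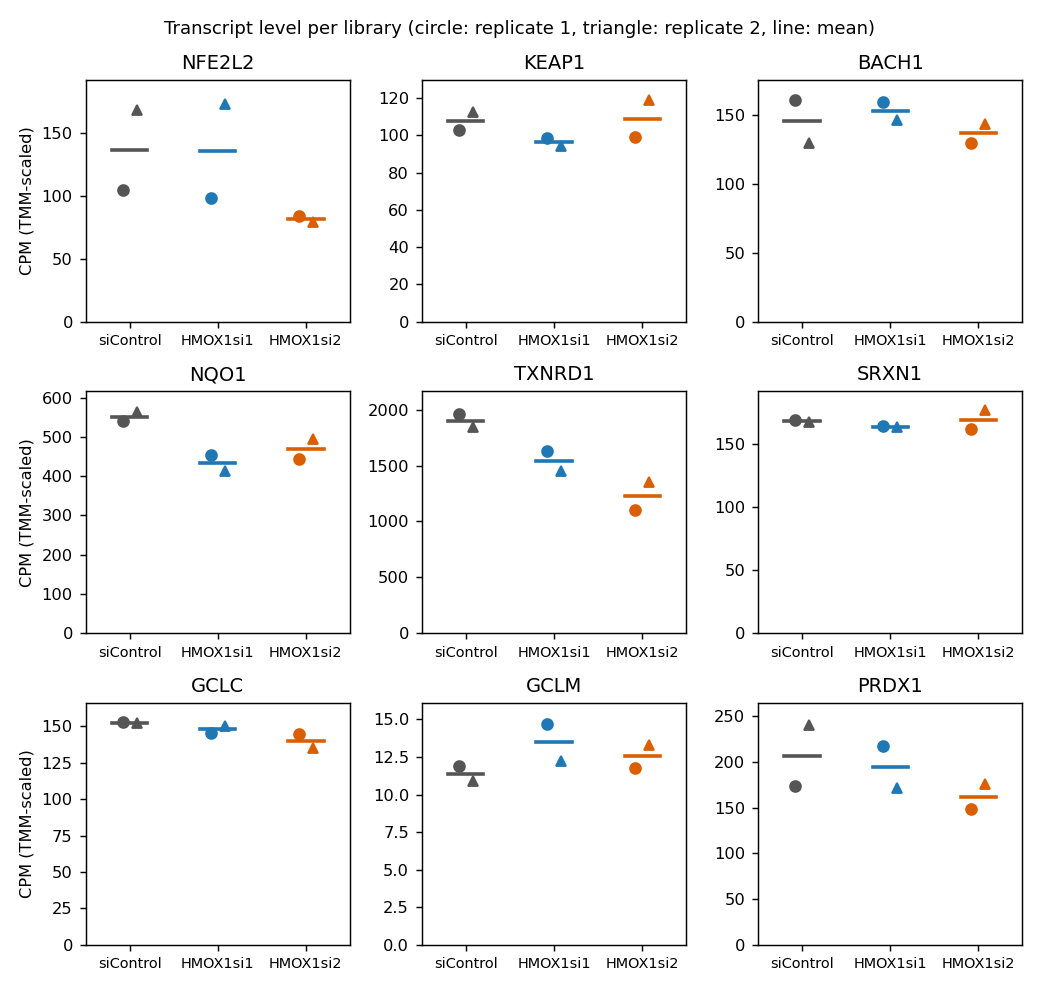
Transcript level (CPM after TMM scaling, linear axes from 0) of the 9 genes in each of the 6 libraries, by siRNA group, with circles for replicate 1, triangles for replicate 2 and lines for group means. TXNRD1 lies between 1102 and 1630.0 CPM in the 4 knockdown libraries and at 1844 and 1961 CPM in the control libraries, whereas SRXN1 and GCLC are nearly level and the replicates of NFE2L2 lie far apart in 2 groups.

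Among the regulators, NFE2L2 (ENSG00000116044, chromosome 2, 177227595 to 177392697 on the minus strand of GRCh38) had 105 and 168 CPM in the siControl libraries, 98.1 and 173 with HMOX1si1, and 84.0 and 79.1 with HMOX1si2. Both HMOX1si2 libraries lay below all others, but the replicates of the other groups stood apart by 1.61-fold and 1.77-fold, replicate 2 being the higher each time. Ratios as large between replicates occurred in 3.30% of 10890 well-expressed genes in siControl and in 2.27% in HMOX1si1. The log2 fold change was −0.01 with HMOX1si1 (95% interval −0.78 to 0.76) and −0.74 with HMOX1si2 (−1.52 to 0.03, edgeR adjusted p = 0.207). Without siControl replicate 2 the value for HMOX1si2 was −0.35, and without siControl replicate 1 it was −1.05, so its size depended on which control library was kept. NFE2L2 shares 54 exonic bases with AGPS on the opposite strand, whose levels lay between 54.6 and 65.7 CPM in all libraries.

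KEAP1 (ENSG00000079999, chromosome 19, 10486120 to 10503741, minus strand), the sensor that holds NRF2 back, had 103 and 112 CPM in siControl, 98.4 and 94.2 with HMOX1si1, and 98.9 and 119 with HMOX1si2. The HMOX1si1 libraries were below both controls and the HMOX1si2 libraries lay on either side of them. The log2 fold changes were −0.16 with HMOX1si1 (95% interval −0.45 to 0.13) and 0.02 with HMOX1si2 (−0.27 to 0.31), and neither passed the edgeR test (adjusted p = 0.399 and 0.938).

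BACH1 (ENSG00000156273, chromosome 21, 29194071 to 29630751, plus strand), the heme-sensing repressor, had 161 and 129.9 CPM in siControl, 159.9 and 146 with HMOX1si1, and 130.1 and 144 with HMOX1si2. All 4 knockdown libraries fell inside the range of the controls. Its log2 fold change on average was −0.01 (95% interval −0.29 to 0.27), which leaves room for a change of the transcript down to 82.0% or up to 121% of control. RNA levels do not show how much BACH1 protein was present or bound to DNA.

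Among the targets, the thioredoxin branch held the member that passed. Thioredoxin reductase 1 uses NADPH to recharge thioredoxin, which in turn reduces peroxiredoxins and other proteins. TXNRD1 (ENSG00000198431, chromosome 12, 104215779 to 104350305, plus strand) had 1961 and 1844 CPM in siControl, 1630.0 and 1452 with HMOX1si1, and 1102 and 1355 with HMOX1si2. The 3 groups did not overlap, with siControl highest and HMOX1si2 lowest, and the same order without overlap held for GCLC. How many of all genes separate in this way was not counted. In 3 of 9 members (TXNRD1, NQO1 and GCLC) all knockdown libraries lay below both controls, as in 18.2% of all genes tested.

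TXNRD1 fell with HMOX1si2 by 0.63 on the log2 scale (SE 0.13, 95% interval −0.94 to −0.32, edgeR adjusted p = 0.0465), to 64.6% of control. On average over both siRNAs its log2 fold change was −0.47 (SE 0.11, edgeR adjusted p = 0.0487). With HMOX1si1 alone the log2 fold change of −0.30 did not pass (SE 0.13, edgeR adjusted p = 0.167). The difference between the siRNAs, −0.33, did not pass either (95% interval −0.64 to −0.02, unadjusted for the number of genes, edgeR adjusted p = 0.222). Both calls are close to the threshold in edgeR. They were kept by DESeq2 (DESeq2 adjusted p = 0.000508 with HMOX1si2 and 0.00323 on average), which called 13.7% and 19.4% of all genes there. RLE size factors and the fit with no expression filter kept them too. The call for HMOX1si2 was lost without siControl replicate 1 (edgeR adjusted p = 0.157), siControl replicate 2 (0.179), HMOX1si1 replicate 1 (0.0868), HMOX1si1 replicate 2 (0.0843) and HMOX1si2 replicate 1 (0.146), with the replicate number as a block (0.104), with library totals in place of TMM (0.0711) and in a fit of only these groups (0.0850), while the fold change ranged only from −0.79 to −0.49. The call on average was lost without the same 5 libraries (edgeR adjusted p = 0.177, 0.196, 0.0919, 0.144 and 0.0728), with the block (0.101) and with library totals (0.0764).

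SRXN1 (ENSG00000271303, chromosome 20, 646615 to 653370, minus strand) encodes sulfiredoxin, which repairs overoxidised peroxiredoxins. It had 169 and 168 CPM in siControl, 164 and 164 with HMOX1si1, and 162 and 177 with HMOX1si2. It was the steadiest of the 9 genes, with a log2 fold change on average of −0.02 and a 95% interval from −0.20 to 0.17. SRXN1 shares 2292 exonic bases with ENSG00000270299 on the same strand, to which at most 2 counts were assigned in any library. How reads in shared exons were counted is not known, so these few counts do not show the level of that neighbour. SRXN1 itself, with 2698 bases of exon, may have been counted from only part of them.

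PRDX1 (ENSG00000117450, chromosome 1, 45511036 to 45523047, minus strand), a peroxiredoxin that thioredoxin recharges and sulfiredoxin repairs, had 174 and 240.4 CPM in siControl, 217 and 171 with HMOX1si1, and 149 and 175 with HMOX1si2. The groups overlapped, since 1 control library lay among the knockdown libraries. The log2 fold change with HMOX1si2 was −0.35 (95% interval −0.84 to 0.13, edgeR adjusted p = 0.303), and −0.10 without siControl replicate 2. PRDX1 shares 379 exonic bases with MMACHC on the opposite strand, whose levels lay between 9.23 and 12.6 CPM.

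NQO1 (ENSG00000181019, chromosome 16, 69706996 to 69726951, minus strand) encodes a quinone reductase and is a standard readout of NRF2 activity. It had 541 and 563 CPM in siControl, 453 and 412 with HMOX1si1, and 444 and 494 with HMOX1si2. All 4 knockdown libraries lay below both controls and the siRNA groups overlapped each other. The log2 fold changes were −0.35 with HMOX1si1 (SE 0.10, edgeR adjusted p = 0.0800), −0.23 with HMOX1si2 (SE 0.10, edgeR adjusted p = 0.211) and −0.29 on average (SE 0.09, edgeR adjusted p = 0.0849), so no comparison passed. DESeq2 called it with HMOX1si1 (adjusted p = 0.0239) and on average (adjusted p = 0.0283).

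Neither gene of glutathione synthesis passed the test. GCLC (ENSG00000001084, chromosome 6, 53497341 to 53616970, minus strand), the catalytic subunit of glutamate-cysteine ligase, which makes the first and rate-limiting step, had 153 and 152 CPM in siControl, 146 and 150.3 with HMOX1si1, and 145 and 135 with HMOX1si2. The knockdown libraries lay just below the controls, with a log2 fold change on average of −0.08 (95% interval −0.27 to 0.10, edgeR adjusted p = 0.481).

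GCLM (ENSG00000023909, chromosome 1, 93885205 to 93909456, minus strand), the modifier subunit that raises the activity of GCLC, had 11.9 and 10.9 CPM in siControl, 14.7 and 12.2 with HMOX1si1, and 11.8 and 13.3 with HMOX1si2. It was the member with the fewest counts, between 430 and 617 per library. Both HMOX1si1 libraries lay above the controls and HMOX1si2 overlapped them. The log2 fold change on average was 0.19 (95% interval −0.13 to 0.51, edgeR adjusted p = 0.361).

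**Figure D2:**
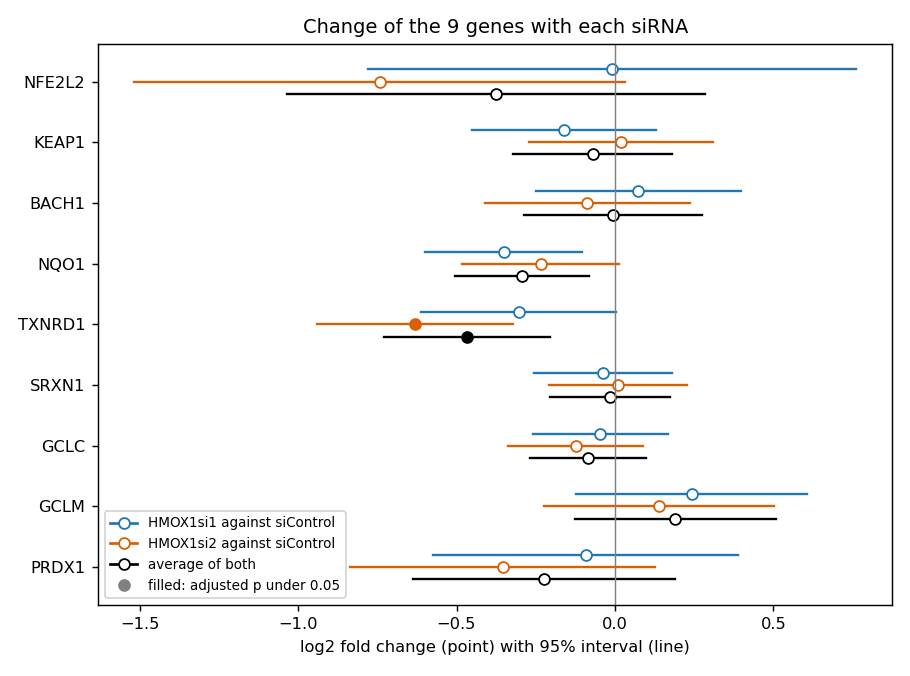
Log2 fold change against siControl (points) with its 95% interval (lines) for the 9 genes, with HMOX1si1, with HMOX1si2 and on average. Filled points passed the edgeR test at an adjusted p under 0.05, which holds for TXNRD1 with HMOX1si2 (−0.63) and on average (−0.47); the widest intervals are those of NFE2L2.

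No member differed between the siRNAs by edgeR (0 of 9, against 3.62% of all genes), and DESeq2 called 0 of 9 against 10.2% of all genes. TXNRD1 had an unadjusted p under 0.05, as did 20.6% of all genes. The largest differences, HMOX1si2 minus HMOX1si1 on the log2 scale, were those of NFE2L2 at −0.73 (95% interval −1.51 to 0.04), TXNRD1 at −0.33 and PRDX1 at −0.26 (−0.74 to 0.22), so these intervals leave room for unequal responses. For SRXN1 the interval ran from −0.17 to 0.27.

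Levels can be compared roughly between genes once counts are divided by exon length. Merged exons can be longer than the transcripts in use, and reads in exons shared with another gene may not be counted. SRXN1 has 2292 such shared bases and PRDX1 379. Per kilobase of exon (the exons of the basic transcripts of GENCODE 29, merged per gene) the control means were 377 CPM per kb for TXNRD1, 177 for NQO1, 165 for PRDX1, 62.5 for SRXN1, 34.1 for KEAP1, 30.1 for NFE2L2, 24.9 for BACH1, 23.9 for GCLC and 2.32 for GCLM. TXNRD1 was the highest in every library and GCLM the lowest. NQO1 and PRDX1 overlapped in their control libraries, as did NFE2L2 with KEAP1, BACH1 and GCLC, so the order of these neighbours is not fixed. The modifier subunit of glutamate-cysteine ligase thus had a lower length-scaled transcript level than the catalytic subunit in all 6 libraries. In the HMOX1si2 group the level of TXNRD1 was 243 CPM per kb and remained the highest.

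**Figure D3:**
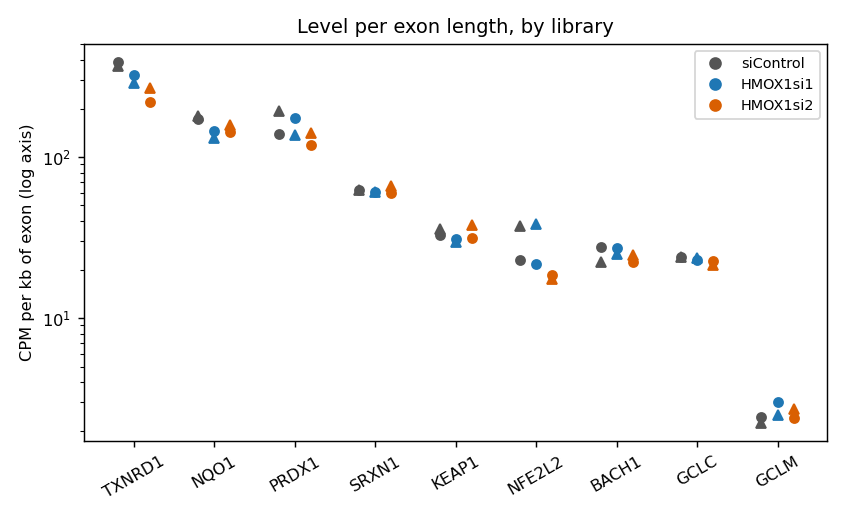
Level per library of the 9 genes in CPM per kilobase of exon, on a log axis, ordered by the siControl mean, with circles for replicate 1 and triangles for replicate 2. TXNRD1 is highest at 377 CPM per kb in control cells and GCLM lowest at 2.32, and the points of NFE2L2, BACH1 and GCLC overlap.

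Promoters were searched for the core of the antioxidant response element, TGACNNNGC on either strand, because the members are grouped by their tie to NRF2 and BACH1. RefSeq windows (GRCh38.p14) from 250 bases before to 50 bases after a start were at hand for 8 members in 13 windows, and 3 members (TXNRD1, KEAP1 and GCLM) held the core in 4 windows; 13.3% of all 35116 windows hold it. The longer core TGACNNNGCA was found in 3.18% of all windows and at 1 site in each of these 3 genes. Those 3 sites are shown 5′ to 3′ on the strand of the gene, where the element runs on the opposite strand and so reads GCNNNGTCA, in capitals.
TXNRD1: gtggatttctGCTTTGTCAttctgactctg
KEAP1: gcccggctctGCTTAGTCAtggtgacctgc
GCLM: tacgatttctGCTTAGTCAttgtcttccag
The TXNRD1 site (chr12:104286920-104286949, plus strand) begins its core 102 bases before an internal RefSeq start and lies in an annotated exon of a longer TXNRD1 transcript. The KEAP1 site (chr19:10502783-10502812, minus strand) lies 31 bases before a start, also inside a KEAP1 exon, and the GCLM site (chr1:93909445-93909474, minus strand) lies 34 bases before its start and touches the first exon. KEAP1 and GCLM share the same 9 letters and TXNRD1 differs from them within the free positions. Of the 3 genes TXNRD1 passed the test and KEAP1 and GCLM did not. The windows of NFE2L2, BACH1, NQO1, SRXN1 and GCLC hold no such core, which says only that these letters are not in those stretches. PRDX1 was not searched.

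Around these 9 genes, 93 further genes from lists of related regulators, NRF2 or BACH1 targets and antioxidant functions were tested, HMOX1 apart. The thioredoxin, glutathione and NADPH lists were drawn by function, and the superoxide and peroxide enzymes are not counted as core NRF2 targets. With HMOX1si1 16 fell and 2 rose, 19.4% of them against 10.0% of all genes; with HMOX1si2 6 fell and 2 rose, 8.60% against 5.73%; and on average 14 fell and 4 rose, 19.4% against 10.1%. Their median log2 fold change on average was −0.22, against −0.0045 over all genes. These lists were drawn up with earlier results on the aldo-keto reductases and other members known, so the shares are no independent evidence. Of the 18 calls on average, 0 were kept when either siControl library was left out. Leaving out HMOX1si1 replicate 1 kept 3 of them and leaving out its replicate 2 kept 2, against 12 and 14 for HMOX1si2, and the replicate block kept 6. None of the 18 changed sign in these fits. Leaving out siControl replicate 1 kept 3 of the 18 calls with HMOX1si1 and leaving out its replicate 2 kept 0, and either omission kept 0 of the 8 calls with HMOX1si2.

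Of 16 other regulators tested, 2 rose on average and none fell (median 0.07), where 10.1% of all genes tested were called. SQSTM1, which encodes p62, an autophagy adaptor that binds KEAP1 and is itself an NRF2 target, had 1192 and 1227 CPM in siControl, 1396 and 1509 with HMOX1si1, and 2146 and 2057 with HMOX1si2. It rose with HMOX1si2 by 0.80 on the log2 scale (edgeR adjusted p = 0.0176, SE 0.09) and differed between the siRNAs. SQSTM1 shares exons with MRNIP and MGAT4B on the opposite strand. NFE2L1, which encodes the relative NRF1, a regulator of proteasome genes, rose with HMOX1si1 (0.51, SE 0.11, edgeR adjusted p = 0.0414) and on average (0.46, edgeR adjusted p = 0.0411). The small MAF genes did not pass. MAFG had a log2 fold change on average of −0.06 and MAFK of −0.26, while MAFF was at 86.6 CPM in HMOX1si1 replicate 2 and between 17.8 and 22.3 CPM in the other 5 libraries.

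In the thioredoxin and peroxiredoxin system, 2 of 13 genes tested rose on average and 1 fell (median −0.20), where 10.1% of all genes tested were called. TXNIP, the inhibitor of thioredoxin, had 199 and 194 CPM in siControl, 389 and 381 with HMOX1si1, and 322 and 343 with HMOX1si2, and rose with each siRNA (on average 0.86, SE 0.08, edgeR adjusted p = 0.00757). Thioredoxin itself, TXN, had 196 and 222 CPM in siControl and between 150.1 and 185 in the knockdown libraries, below both controls, without passing (−0.32, edgeR adjusted p = 0.112). PRDX2, a cytosolic peroxiredoxin, fell on average (−0.42, edgeR adjusted p = 0.0405) and PRDX4, the peroxiredoxin of the endoplasmic reticulum, rose (0.84, edgeR adjusted p = 0.0442).

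Among 22 genes of cystine uptake and glutathione, 6 fell with HMOX1si1, 2 with HMOX1si2 and 5 on average, and none rose (median on average −0.37). Of all genes tested, 10.0%, 5.73% and 10.1% were called in these comparisons, in either direction. GGT1, a cell-surface enzyme that degrades extracellular glutathione, had 20.7 and 21.4 CPM in siControl, 12.04 and 11.5 with HMOX1si1, and 11.5 and 12.1 with HMOX1si2, and fell with each siRNA (on average −0.84, SE 0.10, edgeR adjusted p = 0.0118). It shares 306 exonic bases with SNRPD3 on the same strand. MGST1, a microsomal glutathione transferase, also fell with each siRNA (on average −0.59, edgeR adjusted p = 0.0138). GSR, glutathione reductase, fell with HMOX1si1 (−0.43, edgeR adjusted p = 0.0388) and on average (−0.39, edgeR adjusted p = 0.0354), as did the glutathione transferase gene GSTP1 with HMOX1si1 (−0.74, edgeR adjusted p = 0.0152) and on average (−0.50, edgeR adjusted p = 0.0274). GSTM4 (−0.95, edgeR adjusted p = 0.0356) and MGST3 (−0.41, edgeR adjusted p = 0.0450) fell with HMOX1si1, and CHAC1, which degrades glutathione inside the cell, fell on average (−1.54, edgeR adjusted p = 0.0436). SLC7A11, the cystine carrier and a well-known NRF2 target, had between 80.0 and 99.9 CPM in the 6 libraries and a log2 fold change on average of −0.05. GSTM4 overlaps GSTM2, so its counts are uncertain.

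Enzymes that supply NADPH, on which both reductases depend, gave 4 calls among 9 genes with HMOX1si1, 0 with HMOX1si2 by edgeR and 2 on average, all lower. The shares called over all genes tested were 10.0%, 5.73% and 10.1%, in either direction. PGD, IDH1 and IDH2 fell with HMOX1si1 by 0.39, 0.55 and 0.58 on the log2 scale (edgeR adjusted p = 0.0493, 0.0433 and 0.0316), and IDH2 also on average (−0.44, edgeR adjusted p = 0.0419). None of the 9 differed between the siRNAs in the edgeR test, so the unequal counts are not shown to be a difference.

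Of 21 detoxifying enzymes and pumps tested, 4 fell on average and none rose (median −0.22). All 4 are aldo-keto reductases. Over all genes tested, 10.1% were called on average. AKR1C1, AKR1C2 and AKR1C3 fell with each siRNA (on average −1.08, −0.88 and −0.79, edgeR adjusted p = 0.00790, 0.0212 and 0.0221); they are near-identical copies, so reads may be divided between them. AKR1B10, an aldose reductase relative, fell with HMOX1si1 (−1.66, edgeR adjusted p = 0.00618) and on average (−0.66, edgeR adjusted p = 0.0298), and its value with HMOX1si2 was 0.33 (edgeR adjusted p = 0.212). Of 7 heme and iron targets tested besides HMOX1, FTH1, the ferritin heavy chain, and SLC48A1, a heme transporter, fell on average (−0.66 and −0.74, edgeR adjusted p = 0.0199 and 0.0143), while the ferritin light chain gene FTL had a log2 fold change of 0.05 (edgeR adjusted p = 0.728). FTH1 shares exons with BEST1, and SLC48A1 with HDAC7 and RAPGEF3. Of 5 superoxide and peroxide enzymes none was called by edgeR in any comparison; the smallest adjusted p-values were those of CAT, catalase, at 0.0645 with HMOX1si2 (0.42), and PARK7 at 0.0865 on average (−0.53).

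**Figure D4:**
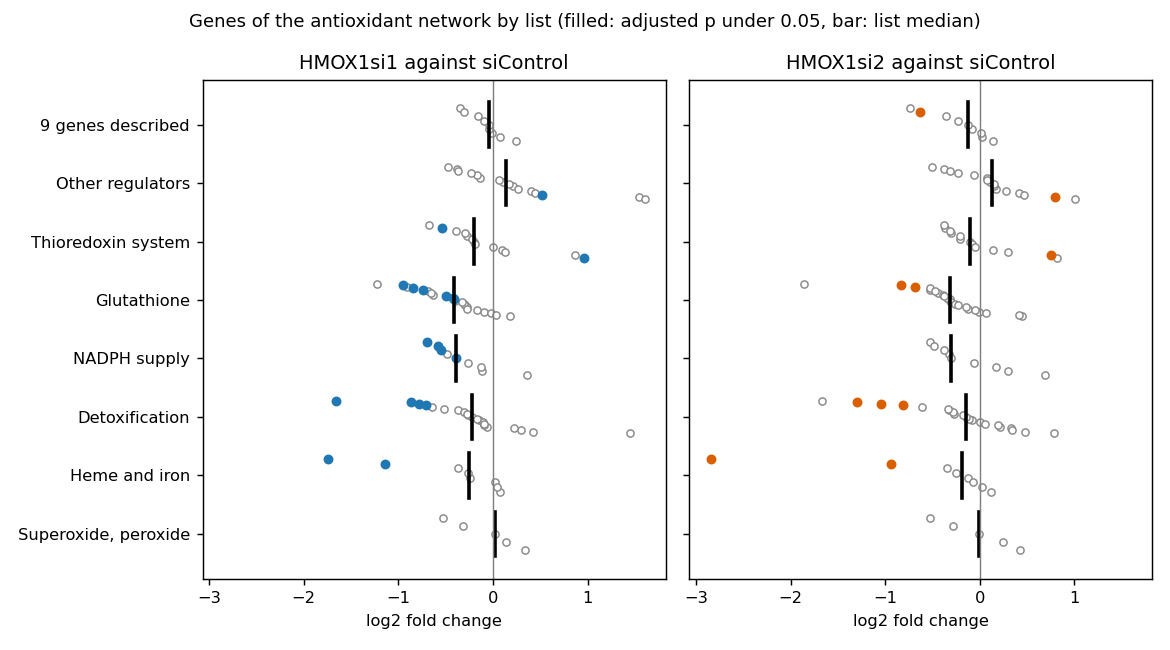
Log2 fold change of each tested gene by list, with HMOX1si1 (left) and HMOX1si2 (right) against siControl; filled points passed the edgeR test at an adjusted p under 0.05 and black bars are list medians. The 9 genes described lie between −0.74 and 0.24, with TXNRD1 filled on the right; filled points left of 0 lie in the glutathione, detoxification, and heme and iron lists in both panels, and in the thioredoxin and NADPH lists in the left panel.

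The genes whose log2 CPM over the 6 libraries, each centred on its own mean, lay nearest to a member were found among 10890 genes by the root mean square difference. For TXNRD1 they were WNT3 (0.04 on the log2 scale), SFXN5 (0.04) and MAD2L1 (0.05), against a spread of TXNRD1 itself of 0.28. For NQO1 they were RPL22, GOT2 and RNF149 (0.02 to 0.03, own spread 0.16). The steady genes SRXN1 (PWP1, DNAJA1 and PRPF4) and GCLC (UBE2V2, SPCS2 and DNAJC11) differed from their nearest genes by 0.02 to 0.03, with spreads of their own of 0.04 and 0.06. The gene nearest to NFE2L2, DET1, differed by 0.18, the largest such distance of all members, against an own spread of 0.45. Relative to own spread, DET1 was no further off than the nearest genes of SRXN1 and GCLC. Nearest to KEAP1, BACH1, GCLM and PRDX1 were TEX264, ZMYM1, PLD6 and PAIP2. None of these nearest genes is a member. These distances are a description over 6 libraries, and no test was made.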

How the data were processed

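The deposited table holds whole-number counts per Ensembl gene in 6 libraries. Aligner, counter and annotation: not given in the sources used here. Builds GRCm38 and mm10 (mouse) appear in the submitters' processing notes, although every identifier is human. Small counts are mostly even (71.9% of those from 1 to 10, 49.9% above 100), so the way reads were counted is not settled. A symbol was found for 20148 of 20263 genes, and GENCODE 29 (GRCh38) gave coordinates, exon lengths and overlaps. The counts were analysed in R 4.3.3 with edgeR 4.0.16: filterByExpr, TMM scaling, then glmQLFit and glmQLFTest on all 6 libraries with a mean for each group and no replicate block. P-values were adjusted over 13769 genes by Benjamini-Hochberg. The standard error is the size of the log2 fold change over the root of F, and 95% intervals use the test's degrees of freedom. Well-expressed genes have a mean log2 CPM of at least 2 (prior count 2). Alternatives were DESeq2 1.42.0, RLE size factors, library totals, no filter, a fit of the compared groups alone, the replicate block, and leaving out each library, and the code was tested on simulated data. In that simulation, 68 of 100 genes with a log2 change of 1 were called on average over both siRNAs, and 3 of 100 with a change of 0.5. Few of its 13618 genes were given a change, so these shares may differ in the real data. All 9 members are described. From each other list, up to 6 called genes with the smallest adjusted p are named, or 2 where none is called. Genes named beyond that rule were chosen after their values were seen, and the members and lists were chosen with earlier results of these data known. A gene that the rule names is not reported here.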

Additional observations from a re-analysis of the deposited data

Results flagged for a closer look

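These genes had a different response to the 2 siRNAs, by edgeR's test of the difference (HMOX1si2 minus HMOX1si1) at an adjusted p under 0.05. Besides HMOX1 they are 3 of the 93 further genes, or 3.23%, which is near the 3.62% called over all genes tested. HMOX1 itself was lower with HMOX1si2 by 1.10 on the log2 scale, a difference of −1.10 (edgeR adjusted p = 0.0284). SQSTM1 was higher with HMOX1si2, with a difference of 0.53 (edgeR adjusted p = 0.0331). AKR1B10 had a difference of 1.98 (edgeR adjusted p = 0.00696), being at 11.6 and 13.5 CPM in siControl, 3.72 and 4.23 with HMOX1si1, and 15.2 and 16.2 with HMOX1si2. SLC48A1 had a difference of 0.79 (edgeR adjusted p = 0.0226). With the replicate block HMOX1 (edgeR adjusted p = 0.0770), SQSTM1 (0.102) and SLC48A1 (0.0682) lost the call, as they did in a fit of only these groups (0.0925, 0.0716 and 0.0528), while AKR1B10 kept it in both (0.0277 and 0.0312). When libraries were left out, AKR1B10 lost the call only without HMOX1si1 replicate 1 (edgeR adjusted p = 0.0524), and SLC48A1 kept it only without HMOX1si2 replicate 2 (0.0452). HMOX1 and SQSTM1 lost it without each of the 6 libraries, with edgeR adjusted p from 0.0789 to 0.141 and from 0.0719 to 0.229.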

How the results depend on the processing

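The direction of TXNRD1 and NQO1 against siControl was the same under all alternatives run, while calls were not. With HMOX1si1, HMOX1si2, on average and for the difference between the siRNAs, 1381, 789, 1389 and 499 genes were called, and DESeq2 called 2639, 1890, 2674 and 1411. With only the groups compared, 1529 were called for HMOX1si1, 179 for HMOX1si2 and 156 for the difference. Leaving out 1 library gave 0 to 1492, 0 to 362, 0 to 1594 and 19 to 204 genes. The counts of 0 came without siControl replicate 1 (HMOX1si2 and average, where 2968 and 3459 genes had an unadjusted edgeR p under 0.05) and without siControl replicate 2 (2806 with HMOX1si1, 2409 with HMOX1si2 and 2562 on average).

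Deviations of same-numbered libraries correlated at −0.0142 (siControl with HMOX1si1), 0.0813 (siControl with HMOX1si2) and −0.301 (between the siRNAs) over 10890 genes. With 2 libraries a group, these correlations cannot decide whether replicate numbers pair the libraries. With the replicate block, 481, 45, 255 and 87 genes were called, and with the crossed block, added after seeing the data, 312 for the difference.

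Of the 9 members, DESeq2 called 1 with HMOX1si1, 1 with HMOX1si2 and 2 on average, against 19.2%, 13.7% and 19.4% of all genes. With HMOX1si2 and on average, library totals and the block called 0 members each, only the groups compared called 0 with HMOX1si2, and leaving out 1 library gave 0 to 1. No member was called for the difference under any alternative by edgeR or DESeq2.

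Some log2 fold changes that did not pass crossed 0 when 1 library was left out. With HMOX1si1 NFE2L2 ran from −0.48 to 0.38, BACH1 from −0.069 to 0.23 and PRDX1 from −0.31 to 0.17. With HMOX1si2 KEAP1 ran from −0.12 to 0.15, BACH1 from −0.23 to 0.071 and SRXN1 from −0.059 to 0.072. On average NFE2L2 ran from −0.68 to 0.013, BACH1 from −0.15 to 0.15, SRXN1 from −0.049 to 0.017 and PRDX1 from −0.44 to 0.035. For the difference SRXN1 ran from −0.021 to 0.11 and GCLM from −0.23 to 0.040. With library totals the average was 0.0088 for BACH1 and 0.00092 for SRXN1. The cause was not tested. With 2 libraries a group, a lone library in these fits is assumed to vary like the others.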

Other observations

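CBR1, a carbonyl reductase of the detoxification list, had 123 and 44.0 CPM in siControl, 55.1 and 104 with HMOX1si1, and 47.9 and 60.8 with HMOX1si2, so its replicates differed more than its groups. TRIM16, another target of NRF2, had 22.0 and 8.86 CPM in siControl, 21.5 and 7.03 with HMOX1si1, and 18.6 and 13.2 with HMOX1si2. It shares 1327 exonic bases with ENSG00000251537 on the same strand. Both genes were chosen after their values were seen.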
